A study of Mus musculus with 9 samples.

Results

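The Slit, Robo and netrin guidance genes were followed by 10 members, read by symbol out of the 25239 gene rows of each count file: the secreted ligands *Slit1*, *Slit2* and *Slit3*, their receptors *Robo1*, *Robo2*, *Robo3* and *Robo4*, the ligand *Ntn1* and its receptors *Dcc* and *Neo1*. All 10 were present. The libraries came from E14 mouse embryonic stem cells (ESCs), a pluripotent line kept here in serum with leukemia inhibitory factor. Controls were Rbbp4+/+ (3 libraries). Both mutant lines carry CRISPR-Cas9 changes in *Rbbp4*, which encodes a histone-binding subunit shared by several chromatin complexes: Rbbp4Ins/Ins has a small in-frame insertion on both alleles (3 libraries), and Rbbp4Ins/Del has that insertion on one allele and a short in-frame deletion on the other (3 libraries). Each mutant line is a single clone, so an effect of the mutation and a difference between clones cannot be told apart. The labels do not say whether the 3 libraries of a line came from separate cultures, and p-values measure the spread among those libraries only.

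Slits are large secreted proteins that bind Robo receptors and are best known for repelling growing axons from the midline of the nervous system. Netrin-1, encoded by *Ntn1*, attracts or repels axons through Dcc and Unc5 receptors, and neogenin, encoded by *Neo1*, is a relative of Dcc that binds netrins and repulsive guidance molecules (RGMs). Robo4 is best known from endothelium, and mammalian Robo3, which acts in commissural neurons, binds Nell2 and has little affinity for Slits.

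The promoter windows of *Slit2* and *Slit3*, which were lower in both mutant lines, and of *Robo3* and *Robo4*, which were higher and lie side by side, are shown. Each runs from 250 bases before to 50 bases after a transcript start in RefSeq on GRCm38.p6 (the mm10 assembly), read 5′ to 3′ on the gene's strand, with every CG dinucleotide in capitals. The windows are chr5:47982905-47983204 on the plus strand for *Slit2*, chr11:35121206-35121505 on the plus strand for *Slit3*, chr9:37433126-37433425 on the minus strand for *Robo3* and chr9:37401722-37402021 on the plus strand for *Robo4*.
Slit2: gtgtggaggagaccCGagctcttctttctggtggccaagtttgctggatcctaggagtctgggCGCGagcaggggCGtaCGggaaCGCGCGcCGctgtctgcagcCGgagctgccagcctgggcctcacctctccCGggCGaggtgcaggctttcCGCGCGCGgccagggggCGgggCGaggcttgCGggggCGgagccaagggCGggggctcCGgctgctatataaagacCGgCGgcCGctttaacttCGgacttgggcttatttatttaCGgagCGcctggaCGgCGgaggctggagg
Slit3: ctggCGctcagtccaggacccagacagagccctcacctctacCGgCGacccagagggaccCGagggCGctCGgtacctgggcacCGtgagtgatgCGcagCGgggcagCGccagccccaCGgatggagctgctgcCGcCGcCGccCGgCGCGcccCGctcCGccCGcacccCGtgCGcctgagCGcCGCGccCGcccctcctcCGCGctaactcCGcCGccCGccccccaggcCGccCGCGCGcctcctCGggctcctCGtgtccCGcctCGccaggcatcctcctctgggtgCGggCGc
Robo3: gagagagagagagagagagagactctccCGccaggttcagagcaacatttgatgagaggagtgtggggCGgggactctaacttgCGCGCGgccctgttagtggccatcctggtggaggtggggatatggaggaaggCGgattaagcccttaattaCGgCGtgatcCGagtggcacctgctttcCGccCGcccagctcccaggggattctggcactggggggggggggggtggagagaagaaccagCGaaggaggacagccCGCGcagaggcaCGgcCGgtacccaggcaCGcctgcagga
Robo4: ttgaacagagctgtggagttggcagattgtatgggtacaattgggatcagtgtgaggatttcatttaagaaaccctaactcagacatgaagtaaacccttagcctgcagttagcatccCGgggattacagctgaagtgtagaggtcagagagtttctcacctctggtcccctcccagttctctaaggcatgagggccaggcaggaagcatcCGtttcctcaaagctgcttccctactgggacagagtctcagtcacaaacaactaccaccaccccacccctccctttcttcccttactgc

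The 2 genes that rose most held unlike sequence at their starts. The *Robo4* window held 2 CG dinucleotides, fewer than most windows (14.1% of 32851 held fewer), and that of *Robo3* held 17 (68.6% held fewer). The windows of the ligands that fell were rich in CG, with 30 in *Slit2* (88.3% held fewer) and 41 in *Slit3* (96.5% held fewer), against a median of 7 over all windows. *Neo1*, which rose slightly, had 54, above 99.7% of windows. A search of both strands for GGGCGG found 3 matches in *Slit2*, 5 in *Slit3*, 2 in *Robo3* and 0 in *Robo4*, and 35.7% of all windows held at least 1. TATAAA was found once among the member windows that were read, in *Slit2*, and stands in 13.6% of all windows. CG content did not sort these members into those that rose and those that fell. Windows of 7 members were read, matched by symbol. *Slit1*, *Ntn1* and *Dcc* were not read, *Dcc* because the processing left it out, so these statements do not cover them.

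The ligand genes *Slit2* and *Slit3* each hold an intronic miRNA gene, and both hairpins yield the same mature arm. Mir218-1 lies in intron 14 of 35 of the longest coding transcript of *Slit2* (chr5:48223942-48224051, plus strand), and Mir218-2 lies in intron 14 of 35 of that of *Slit3* (chr11:35616816-35616925, plus strand). The shared mature sequence from RefSeq is shown with its seed, bases 2 to 8, in capitals.
mmu-miR-218-5p: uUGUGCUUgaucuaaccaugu
Both hairpin genes had 0 reads in all 9 libraries, and libraries made from mRNA do not measure mature miRNAs, so the level of miR-218 in these lines is unknown.

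Library totals ran from 15838064 to 21366868 counted reads, and 14125 genes passed the filter on low counts. *Rbbp4* itself had 9932 to 10117 normalized counts in the control libraries, 5485 to 5776 in Rbbp4Ins/Ins and 10129 to 10603 in Rbbp4Ins/Del. A normalized count is a read count scaled to the average library by the trimmed mean of M-values (TMM). All 10 markers of pluripotent stem cells had more than 3 reads in every line. Their summed level was 101153 to 105814 in controls, 127675 to 129592 in Rbbp4Ins/Ins and 126288 to 129674 in Rbbp4Ins/Del. In Rbbp4Ins/Ins 7 were higher and 2 lower, where 29.0% and 29.4% of all genes tested were. In Rbbp4Ins/Del 6 were higher and 1 lower, where 30.6% and 31.9% of all genes tested were.

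Of the 10 guidance genes, 5 rose and 4 fell in Rbbp4Ins/Ins at an adjusted p of at most 0.01 (edgeR quasi-likelihood test, Benjamini-Hochberg adjustment over all genes tested), and 5 rose and 4 fell in Rbbp4Ins/Del. Calls were common in these lines: over all genes tested, 29.0% were higher and 29.4% lower in Rbbp4Ins/Ins, and 30.6% were higher and 31.9% lower in Rbbp4Ins/Del. *Slit1* was the member not called in either line. The median log2 fold change of the members was 0.18 in Rbbp4Ins/Ins and −0.21 in Rbbp4Ins/Del, against 0.0038 and −0.01 over all genes tested. The filter on low counts was passed by *Robo2* only through the control libraries and by *Robo3* only through the mutant libraries, so these genes had to differ once they passed. Both comparisons use the same 3 control libraries.

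**Figure D1:**
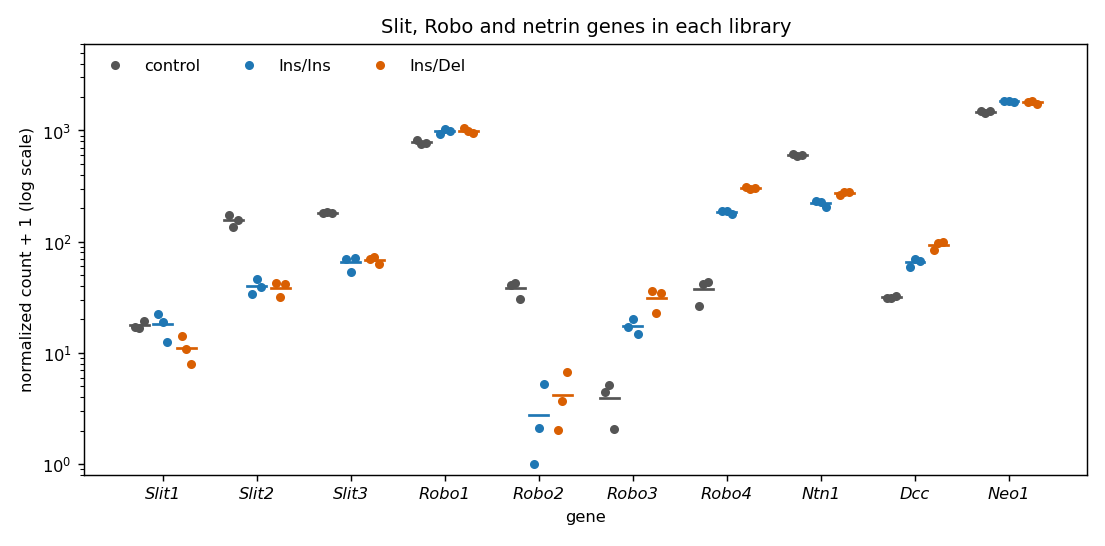
Normalized count plus 1 on a log scale for each of the 10 genes, with 1 point per library and a bar at the mean of each line (3 libraries a line). *Slit2*, *Slit3*, *Robo2* and *Ntn1* sit lower in all 6 mutant libraries than in any control, and *Robo1*, *Robo3*, *Robo4*, *Dcc* and *Neo1* sit higher. *Robo2* passed the filter on low counts only through the controls and *Robo3* only through the mutant libraries. The share of all genes tested that were likewise separate is not given here.

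The Robo receptors moved in opposite directions. *Robo4* (ENSMUSG00000032125, chr9:37401897-37415115, plus strand) rose most firmly. Its normalized counts were 25.6, 40.9 and 42.2 in the controls, 189, 188 and 177 in Rbbp4Ins/Ins and 307, 299.6 and 303 in Rbbp4Ins/Del. The 3 lines formed separate ranges with no overlap. The fitted difference from control was a log2 fold change of 2.38 ± 0.14 (SE, n = 3 libraries a line) in Rbbp4Ins/Ins, or 5.19-fold (edgeR, adjusted p = 1.01e-17), and 3.09 ± 0.13 in Rbbp4Ins/Del, or 8.51-fold (edgeR, adjusted p = 1.1e-22). Between the mutant lines *Robo4* was 1.64-fold higher in Rbbp4Ins/Del (log2 difference 0.71 ± 0.09 SE, edgeR adjusted p = 3.86e-07).

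Since Robo4 is known from endothelium, the levels of 10 endothelial markers were read beside it. Their summed level was 1341 to 1392 normalized counts in controls, 2599 to 2765 in Rbbp4Ins/Ins and 2555 to 2756 in Rbbp4Ins/Del. Of the 8 that could be tested, 2 rose and 1 fell in Rbbp4Ins/Ins and 3 rose and 1 fell in Rbbp4Ins/Del. These counts are to be read against all genes tested. Of those, 29.0% were higher and 29.4% lower in Rbbp4Ins/Ins, and 30.6% and 31.9% in Rbbp4Ins/Del. Most of the sum came from *Pecam1*, an adhesion molecule that ESCs also express, at a mean of 913 in controls, 1780.1 in Rbbp4Ins/Ins and 1602 in Rbbp4Ins/Del, and from *Tek*, a receptor for angiopoietins, which rose from 321 to 793 and 852. *Kdr*, a receptor for vascular endothelial growth factor, was not called in Rbbp4Ins/Ins and rose 2.09-fold in Rbbp4Ins/Del. Between the mutant lines, 1 of the 8 tested markers was higher in Rbbp4Ins/Del, 1 was lower and 6 were not called. Over all genes tested, 6.17% were higher and 4.64% lower there. *Kdr* was the higher one (log2 0.78, edgeR adjusted p = 0.000438) and *Pecam1* the lower one (log2 −0.15, edgeR adjusted p = 0.00848). Against control, the marker that fell was *Tie1* in both lines, with at most 14 reads in any mutant library. Its log2 fold change was −1.55 in Rbbp4Ins/Ins (edgeR, adjusted p = 0.00069) and −1.46 in Rbbp4Ins/Del (edgeR, adjusted p = 0.00107). The tested markers thus did not move in 1 direction. At the low end of the list, *Emcn* had at most 1 read in any library, *Erg* at most 5, and *Cdh5*, which encodes VE-cadherin, at most 13. The part of such cells in the *Robo4* result was not tested.

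*Robo3* (ENSMUSG00000032128, chr9:37415669-37433246, minus strand) rose from a level near the detection limit. It had 4, 4 and 1 reads in the controls, 19, 17 and 13 in Rbbp4Ins/Ins and 34, 24 and 29 in Rbbp4Ins/Del. No mutant library overlapped the controls, but *Robo3* passed the filter on low counts only through the mutant libraries, so a difference was given in advance. The log2 fold change was 2.42 ± 0.48 (SE) in Rbbp4Ins/Ins (edgeR, adjusted p = 3.08e-05) and 3.27 ± 0.42 in Rbbp4Ins/Del (edgeR, adjusted p = 1.02e-08). With so few control reads the size is loose: from summed reads of 9 and 49 the Rbbp4Ins/Ins ratio was 5.53 with an exact 95% interval of 2.69 to 12.8, and from 9 and 87 reads the Rbbp4Ins/Del ratio was 9.99 (5.02 to 22.6). These intervals cover counting error only. The 2 mutant lines did not overlap each other, but their difference of 0.85 ± 0.29 (SE) missed the threshold (edgeR, adjusted p = 0.0363).

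*Robo3* and *Robo4* lie tail to tail, with 553 bp between their annotated ends. *Robo3* took 7.69% of the reads of the pair in the controls (9 reads against 108 for *Robo4*, exact binomial 95% interval 3.58 to 14.1%), 8.11% in Rbbp4Ins/Ins (6.06 to 10.6%) and 8.87% in Rbbp4Ins/Del (7.16 to 10.8%). The ratio of the neighbours was thus alike in the 3 lines within counting error while both levels moved several fold. No annotated exon of any other gene overlaps either gene. The strand setting of the authors' counting is not given in the sources used here, and whether reads passing the end of *Robo4* were counted for *Robo3* was not tested.

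*Robo2* (ENSMUSG00000052516, chr16:73891839-74411825, minus strand) nearly disappeared. It had 47, 40 and 27 reads in the controls, 0, 1 and 4 in Rbbp4Ins/Ins and 1, 3 and 5 in Rbbp4Ins/Del. Every mutant library lay far below every control, but *Robo2* passed the filter on low counts only through the controls, so a difference was given in advance. From summed reads, the controls were 22.5 times above Rbbp4Ins/Ins (114 against 5 reads, exact 95% interval 9.34 to 70.5) and 12.3 times above Rbbp4Ins/Del (114 against 9 reads, 6.24 to 27.5). Like those of *Robo3*, these intervals cover counting error only and not the spread between libraries. The fitted log2 fold changes were −4.38 ± 0.49 (SE; edgeR, adjusted p = 3.68e-10) and −3.56 ± 0.43 (edgeR, adjusted p = 2.69e-09). The sizes rest on few reads: without Rbbp4Ins/Ins library 1 or 3 the first was −3.70 or −5.93, and without Rbbp4Ins/Del library 3 the other was −4.20, each still called. At 0 to 5 reads a library, the mutant lines could not be set apart from each other (difference 0.83, 95% interval −0.91 to 2.56).

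*Robo1* (ENSMUSG00000022883, chr16:72308306-73046095, plus strand), the most abundant Robo receptor in controls, rose modestly. Its normalized counts were 819, 751 and 769 in the controls, 929, 1039 and 983 in Rbbp4Ins/Ins and 1052, 981 and 944 in Rbbp4Ins/Del. The controls lay below all mutant libraries, while the mutant lines overlapped. The log2 fold change was 0.33 ± 0.05 (SE) in Rbbp4Ins/Ins (edgeR, adjusted p = 1.4e-06) and 0.35 ± 0.05 in Rbbp4Ins/Del (edgeR, adjusted p = 4.69e-07), and the difference between mutant lines was 0.02 (95% interval −0.09 to 0.12). *Robo1* and *Robo2* also face each other tail to tail on chromosome 16, 845.7 kb apart, and unlike *Robo3* and *Robo4* this pair moved in opposite directions. The genes between and beside them could not serve for comparison, since both that are listed within 500 kb had at most 1 read.

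**Figure D2:**
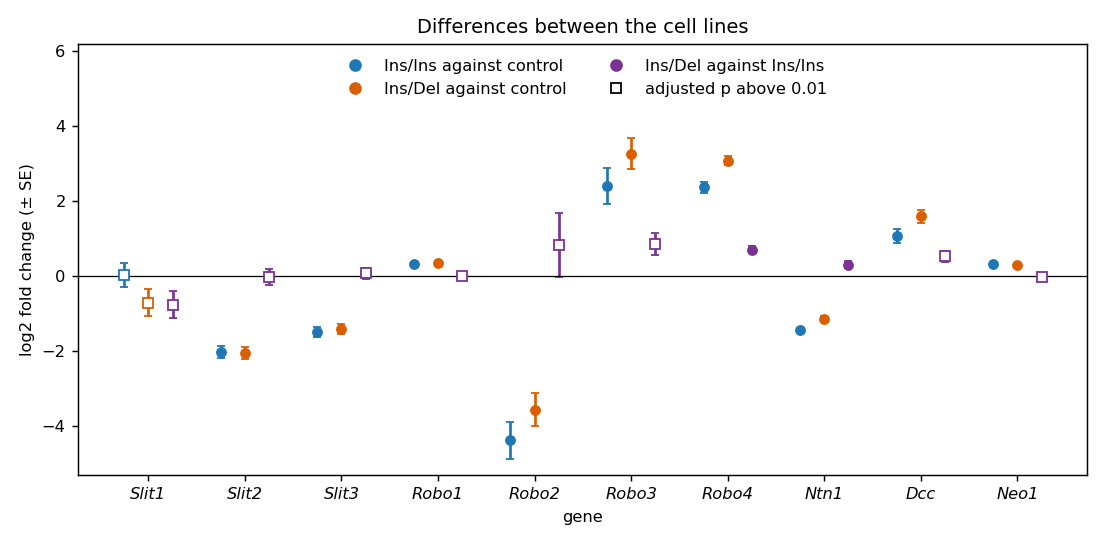
Fitted log2 fold change with its SE for each gene in the 3 comparisons, with filled circles for an adjusted p of at most 0.01 and open squares above it. *Robo2* reaches −4.38 and *Robo3* and *Robo4* exceed 2 against control, and between the mutant lines only *Robo4* and *Ntn1* are filled.

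To compare levels between receptors, normalized counts were divided by the summed length of each gene's exons in GENCODE M21. On this scale *Robo1* made up 86.6, 80.8 and 82.6% of the summed Robo level in the controls, 59.7, 62.1 and 62.6% in Rbbp4Ins/Ins and 50.3, 49.8 and 47.8% in Rbbp4Ins/Del. *Robo4* made up 8.44, 13.7 and 14.1% in the controls, 37.8, 35.1 and 35.0% in Rbbp4Ins/Ins and 45.7, 47.4 and 47.8% in Rbbp4Ins/Del. On this scale *Robo1* was most of the summed Robo level in controls, and *Robo1* and *Robo4* had like shares in Rbbp4Ins/Del. That likeness holds for the summed exon length only: per kb of the longest coding transcript *Robo1* stood at 131 and *Robo4* at 61.2 in Rbbp4Ins/Del, and without division by length at 992 and 303. The mean share of *Robo2* went from 3.86% to 0.109% and 0.155%, and that of *Robo3* from 0.746% to 2.46% and 3.59%. The summed Robo level per kb of all exons was 1.71 times the control in Rbbp4Ins/Ins and 2.15 times in Rbbp4Ins/Del. For each of these measures neither mutant line overlapped the controls, and the exact permutation test against control gave p = 0.1 (two-sided), the smallest that 3 against 3 libraries allow. The size depends on the length used: the gain in the *Robo4* share in Rbbp4Ins/Del was 34.9 percentage points per kb of all exons, 24.4 per kb of the longest coding transcript and 18.6 without division by length. The ratios of the summed Robo level depend on it too. *Robo4* has 5.30 kb of exon and *Robo1* 16.5 kb, so division by this length gives *Robo4* more weight in the sum.

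**Figure D3:**
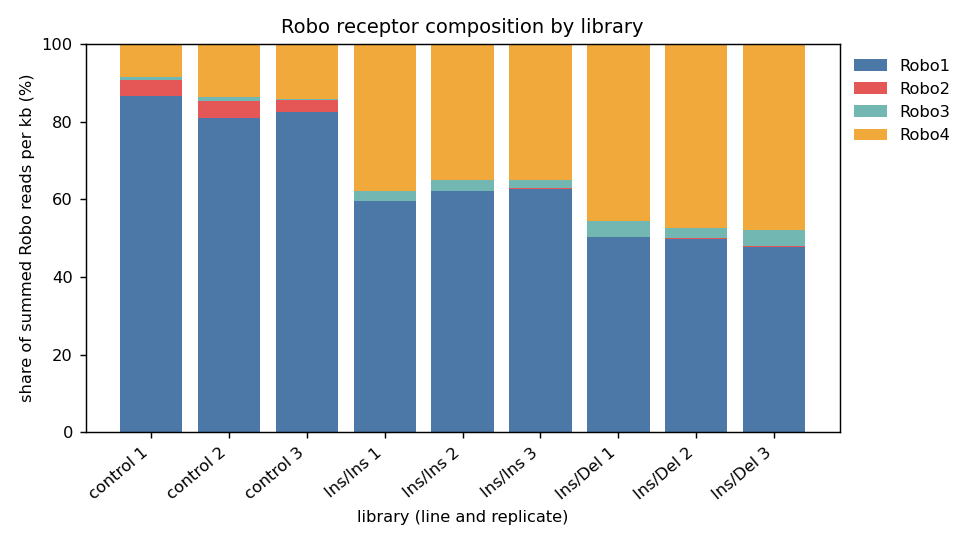
Share of each Robo receptor in the summed Robo reads per kb of exon (%), 1 stacked bar per library in the order control, Ins/Ins and Ins/Del. The *Robo4* part grows from 8.44 to 14.1% in the controls to 45.7 to 47.8% in Rbbp4Ins/Del.

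The Slit ligands fell where they were well detected. *Slit2* (ENSMUSG00000031558, chr5:47983138-48307733, plus strand) had 174, 135 and 155 normalized counts in the controls, 32.5, 45.1 and 38.1 in Rbbp4Ins/Ins and 41.9, 30.7 and 40.5 in Rbbp4Ins/Del. The mutant libraries shared 1 range, far under the controls. It was 4.07-fold lower in Rbbp4Ins/Ins (log2 −2.03 ± 0.16 SE, edgeR adjusted p = 3.24e-14) and 4.15-fold lower in Rbbp4Ins/Del (log2 −2.05 ± 0.16, edgeR adjusted p = 2.21e-14). The difference between the mutant lines was −0.03 on the log2 scale (95% interval −0.45 to 0.40).

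*Slit3* (ENSMUSG00000056427, chr11:35121224-35708507, plus strand) had 179, 182 and 181 normalized counts in the controls, 69.3, 51.9 and 70.8 in Rbbp4Ins/Ins and 68.5, 72.2 and 62.5 in Rbbp4Ins/Del. Again the mutant lines overlapped each other and not the controls. It was 2.79-fold lower in Rbbp4Ins/Ins (log2 −1.48 ± 0.13 SE, edgeR adjusted p = 7.03e-13) and 2.65-fold lower in Rbbp4Ins/Del (log2 −1.41 ± 0.13, edgeR adjusted p = 2.02e-12).

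*Slit1* (ENSMUSG00000025020, chr19:41600257-41743665, minus strand), known mainly from brain, was low in every line. Its normalized counts were 16.2, 15.7 and 18.4 in the controls, 21.4, 18.1 and 11.6 in Rbbp4Ins/Ins and 13.3, 9.93 and 6.94 in Rbbp4Ins/Del. The controls overlapped Rbbp4Ins/Ins, and the controls lay above all Rbbp4Ins/Del libraries. Neither difference from control passed (log2 0.04, 95% interval −0.60 to 0.69, edgeR adjusted p = 0.909, and log2 −0.71, −1.44 to 0.02, edgeR adjusted p = 0.0745). It had 6 to 25 reads a library, and the interval for Rbbp4Ins/Del includes 0. Summed over the 3 Slits, per kb of exon, the level was 39.0, 38.0 and 39.0 in the controls, 16.3, 13.4 and 15.1 in Rbbp4Ins/Ins and 15.2, 14.8 and 13.1 in Rbbp4Ins/Del, a ratio of 0.386 and 0.371 to control (exact permutation p = 0.1, the smallest possible). The summed Robo level was higher in both lines, but its members did not move as 1. Per kb of exon, in controls, Rbbp4Ins/Ins and Rbbp4Ins/Del, *Robo4* stood at 6.84, 34.8 and 57.2. In that order *Robo1* stood at 47.2, 59.6 and 60.1, and *Robo3* at 0.423, 2.39 and 4.38. *Robo2* fell as the Slits did (2.19, 0.105 and 0.187). Since Robo3 has little affinity for Slits, the 2 sums do not give a balance of Slits and their receptors.

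Among the netrin members, the ligand *Ntn1* fell while *Dcc* and *Neo1* rose. *Ntn1* (ENSMUSG00000020902, chr11:68209364-68400823, minus strand) gave normalized counts of 619, 587 and 595 for controls, 229, 225 and 206 in Rbbp4Ins/Ins and 264, 278 and 280.0 in Rbbp4Ins/Del. The 3 lines did not overlap, with Rbbp4Ins/Ins lowest. It was 2.73-fold lower in Rbbp4Ins/Ins (log2 −1.45 ± 0.07 SE, edgeR adjusted p = 2.86e-20) and 2.19-fold lower in Rbbp4Ins/Del (log2 −1.13 ± 0.07, edgeR adjusted p = 1.61e-17). Between the mutant lines it was 1.24-fold higher in Rbbp4Ins/Del (log2 0.31 ± 0.08, edgeR adjusted p = 0.00538). That call did not hold with DESeq2 (adjusted p = 0.0113) or without library 2 or 3 of either mutant line (edgeR adjusted p = 0.0122 and 0.0385 for Rbbp4Ins/Ins, 0.0272 and 0.0229 for Rbbp4Ins/Del). Over all its alternatives the adjusted p ran from 0.00393 to 1, the latter in a test of a change above 2-fold.

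*Dcc* (ENSMUSG00000060534, chr18:71253634-72351069, minus strand), the attractive netrin receptor, rose in both lines. Its normalized counts were 29.9, 30.4 and 31.4 in the controls, 58.2, 68.8 and 66.6 in Rbbp4Ins/Ins and 82.8, 96.5 and 98.3 in Rbbp4Ins/Del. The ranges of the 3 lines were separate. It was 2.10-fold higher in Rbbp4Ins/Ins (log2 1.07 ± 0.19 SE, edgeR adjusted p = 4.46e-06) and 3.02-fold higher in Rbbp4Ins/Del (log2 1.60 ± 0.17, edgeR adjusted p = 2.11e-10). The difference between the mutant lines, 0.53 ± 0.15, stood just over the threshold (edgeR adjusted p = 0.0109) and just under it with DESeq2 size factors in edgeR (adjusted p = 0.0092) or with only those 2 lines in the model (edgeR adjusted p = 0.00949), in a range of 0.0092 to 1 over the alternatives.

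*Neo1* (ENSMUSG00000032340, chr9:58874687-59036441, minus strand) was the most abundant member. It had 1486, 1435 and 1481 normalized counts in the controls, 1855, 1831 and 1799 in Rbbp4Ins/Ins and 1794, 1842 and 1747 in Rbbp4Ins/Del. All mutant libraries lay above the controls, by a small step. The rise was 1.25-fold in Rbbp4Ins/Ins (log2 0.32 ± 0.04 SE, edgeR adjusted p = 3.2e-09) and 1.22-fold in Rbbp4Ins/Del (log2 0.29 ± 0.04, edgeR adjusted p = 2.08e-08). The median absolute log2 fold change of all genes tested was 0.30 and 0.34 in these comparisons, so the steps of *Neo1* and *Robo1* were of ordinary size for these lines.

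Between the mutant lines, 2 of the 10 members (*Robo4* and *Ntn1*) were higher in Rbbp4Ins/Del and 0 were lower at an adjusted p of at most 0.01 (edgeR), where 6.17% of all genes tested were higher and 4.64% lower. DESeq2 called 1 member higher and 0 lower. Before adjustment, *Slit1* was the member lower at a p under 0.05 in the edgeR model over all genes (adjusted p = 0.142). *Robo3* and *Dcc* lay in the same direction as *Robo4* without overlap between the lines and without passing the threshold. For *Slit2*, *Slit3*, *Robo1* and *Neo1* the lines overlapped.

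On the scale of normalized reads per kb of exon, the order of levels in controls was *Neo1* at 168, *Ntn1* at 95.6, *Robo1* at 47.2, *Slit3* at 29.8, *Robo4* at 6.84, *Slit2* at 6.08, *Slit1* at 2.84, *Dcc* at 2.32, *Robo2* at 2.19 and *Robo3* at 0.423. *Robo4* and *Slit2*, and *Dcc* and *Robo2*, overlapped between libraries. In Rbbp4Ins/Del the order ran *Neo1* at 206, *Robo1* at 60.1, *Robo4* at 57.2, *Ntn1* at 43.6, *Slit3* at 11.2, *Dcc* at 7.03, *Robo3* at 4.38, *Slit1* at 1.70, *Slit2* at 1.48 and *Robo2* at 0.187. *Robo4* had come to overlap *Robo1* there, and *Slit1* overlapped *Slit2*. In Rbbp4Ins/Ins *Robo4* at 34.8 overlapped *Ntn1* at 35.1, and *Slit1* at 2.88 overlapped *Robo3* at 2.39. *Neo1* was the highest in all 3 lines, and *Robo3* left the last place to *Robo2* in both mutants. By length of the longest coding transcript *Robo1* and *Ntn1* changed places in controls (103 and 102), *Slit2* stood above *Robo4* there (15.5 and 7.32), and *Robo1* at 131 stood clear of *Robo4* at 61.2 in Rbbp4Ins/Del.

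Markers of other cell types were also read beside the members, and within each list some rose and others fell. The summed level of 10 fibroblast markers was 631 to 743 in controls, 279 to 301 in Rbbp4Ins/Ins and 356 to 389 in Rbbp4Ins/Del. Of the 5 tested, 4 fell and 1 rose in each mutant line: the collagen gene *Col1a1* went from a mean of 287 to 17.0 and 24.4, while *Thy1*, a surface protein, went from 45.7 to 246 and 312. *Col3a1*, among those that fell, had at most 2 reads in any mutant library and passed the filter only through the controls. The counts of each list are to be read against all genes tested. There 29.0% were higher and 29.4% lower in Rbbp4Ins/Ins, and 30.6% and 31.9% in Rbbp4Ins/Del. *Lum* and *Fap* had at most 3 reads in every library. The summed level of 10 neural markers was 3645 to 3790 in controls, 2011 to 2144 in Rbbp4Ins/Ins and 2354 to 2422 in Rbbp4Ins/Del. Much of the fall in that sum was in *Nes*, which went from a mean of 1744 to 230 and 205. *Pax6*, a neural transcription factor, fell from 678 to 73.6 and 30.1, and *Map2* from 399 to 113 and 95.1. The neuronal tubulin gene *Tubb3* rose from 472 to 967 and 1295, and *Elavl3* from 265 to 533 and 578. Of the 7 neural markers tested, 2 rose and 3 fell in each line, and *Neurog2* had at most 3 reads in every library. Primitive endoderm markers summed to 1785 to 1911 in controls, 1758 to 1889 in Rbbp4Ins/Ins and 2424 to 2461 in Rbbp4Ins/Del, where 6 of the 8 tested rose and 2 fell, against 2 and 2 in Rbbp4Ins/Ins. In such bulk libraries fewer cells of a type and less RNA per cell cannot be told apart, and the part of such cells in the results was not tested.

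Other genes of these pathways were read from 4 lists, of which 58 genes could be tested. In Rbbp4Ins/Ins 15 rose, 33 fell and 10 were not called, and in Rbbp4Ins/Del 13 rose, 32 fell and 13 were not called (edgeR, adjusted p of at most 0.01). Over all genes tested, 29.0% were higher and 29.4% lower in Rbbp4Ins/Ins and 30.6% and 31.9% in Rbbp4Ins/Del, and the counts of each list are to be read against these shares. Their median log2 fold change was −0.25 and −0.23. Between the mutant lines 2 were higher and 4 lower in Rbbp4Ins/Del, where 6.17% and 4.64% of all genes tested were.

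Among 7 tested genes of the netrin family and further netrin receptors, 2 rose and 4 fell in each line. *Unc5b*, a repulsive netrin receptor, fell from a mean of 1069 normalized counts to 383 in Rbbp4Ins/Ins (log2 −1.48) and 355 in Rbbp4Ins/Del (log2 −1.59). *Dscam*, another netrin receptor, fell from 15.9 to 5.12 (log2 −1.55) and 4.58 (log2 −1.81), with at most 8 reads in any mutant library, so it passed the filter on low counts only through the controls and had to differ. *Draxin*, a secreted antagonist that binds Dcc and netrin, rose from 27.0 to 64.4 (log2 1.21) and 70.7 (log2 1.36). The other tested genes of this list are named after their values were seen. *Adora2b* was higher in both lines (log2 0.73 and 0.94), and *Dscaml1* (−0.48 and −0.50) and *Ntn3* (−0.99 and −0.77) were lower. *Unc5a* was not called in either line (0.03 and −0.39). The receptors of netrin thus split, with *Dcc* and *Neo1* higher, *Unc5b* lower and *Unc5a* not called.

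Of the 7 tested genes for RGM ligands of neogenin and their partners, 0 rose in either line and 5 fell in Rbbp4Ins/Ins and 6 in Rbbp4Ins/Del. *Bmpr1b*, a BMP receptor, fell from 38.4 to 13.8 (log2 −1.48) and 18.1 (log2 −1.04). *Rgma*, a ligand of neogenin, had means of 57.4, 21.3 and 31.7 in controls, Rbbp4Ins/Ins and Rbbp4Ins/Del (log2 −1.45 and −0.87), and is named after its values were seen. *Neo1* itself stood above control in these lines.

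Of 18 co-factors and binding partners of Slits and Robos, 5 rose and 9 fell in Rbbp4Ins/Ins, and 6 rose and 8 fell in Rbbp4Ins/Del. *Nell2*, the secreted ligand of Robo3, rose from 25.5 to 113 (log2 2.16) and 124 (log2 2.30), in the lines in which *Robo3* rose. The genes of the FLRT proteins, transmembrane partners of Robo1, did not move together: *Flrt2* (log2 −1.74 and −1.20) and *Flrt3* (−1.13 and −1.04) fell in both lines, while *Flrt1*, named after its values were seen, rose in Rbbp4Ins/Ins (log2 1.15, edgeR adjusted p = 0.00749) and was not called in Rbbp4Ins/Del (log2 0.81). Of the syndecans, heparan sulfate carriers that help Slit signalling, *Sdc2* was lower (log2 −1.08 and −1.21) and only *Sdc4* was higher (log2 1.59 and 1.34). *Sdc3* and *Sdc1* are named after their values were seen. *Sdc3* was lower in both lines (log2 −1.13 and −0.90). *Sdc1* was lower in Rbbp4Ins/Ins (log2 −0.25) and not called in Rbbp4Ins/Del (log2 −0.13). *Dag1*, whose product dystroglycan binds Slits, passed in opposite directions with tiny steps, −0.09 in Rbbp4Ins/Ins and 0.10 in Rbbp4Ins/Del, and its difference between the lines was 0.19 (edgeR, adjusted p = 4.3e-06).

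Of 26 tested intracellular effectors of Robo and Dcc, 8 rose and 15 fell in Rbbp4Ins/Ins, and 5 rose and 14 fell in Rbbp4Ins/Del. *Pak1*, a kinase recruited through Nck, fell from 1659 to 443 (log2 −1.91) and 409 (log2 −2.01). *Trim67*, a ubiquitin ligase that interacts with Dcc, fell from 769.5 to 357 (log2 −1.11) and 273 (log2 −1.50).

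**Figure D4:**
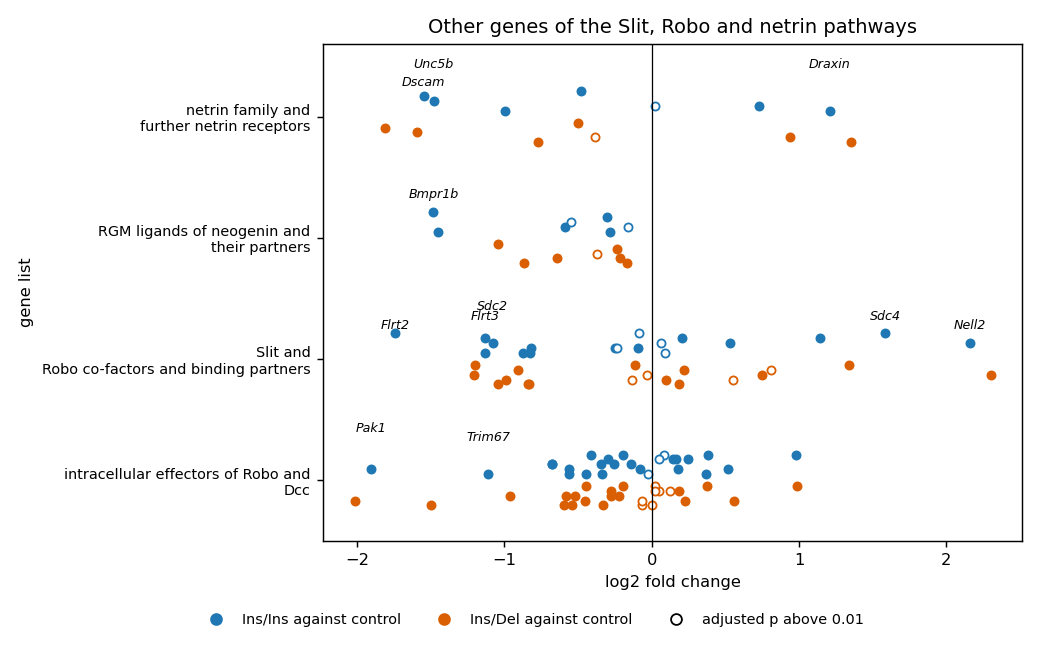
Log2 fold change against control of the 58 tested genes outside the 10 members, by list, with 1 point per gene and line, filled for an adjusted p of at most 0.01. Genes past 1 in size in both lines are named near their Rbbp4Ins/Ins point, from *Pak1* at −1.91 to *Nell2* at 2.16.

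The rise of *Robo3* and *Robo4* was set beside that of the genes around them. Within 500 kb, 21 other genes are listed and 11 could be tested. In Rbbp4Ins/Ins 3 rose and 2 fell, and in Rbbp4Ins/Del 5 rose and 1 fell, where 29.0% of all genes tested rose and 29.4% fell in the former line and 30.6% and 31.9% in the latter. The count that rose in Rbbp4Ins/Ins was near that share. Those called in both lines in 1 direction were *Msantd2*, 56.1 kb away (log2 0.55 and 0.67), *Ccdc15* at 53.5 kb (0.23 and 0.31) and *Slc37a2*, a sugar phosphate transporter gene at 146 kb (0.92 and 1.10), all higher, and *Tbrg1* at 216 kb, lower (−0.11 and −0.22). None of the 11 reached the log2 fold change of *Robo3* or *Robo4*. The nearest gene, *Hepacam* at 15.3 kb, had at most 7 reads and was not tested, and *Esam*, an endothelial adhesion gene at 94.8 kb, was not called in either line (edgeR, adjusted p = 0.586 and 0.0397). In the window of 1 Mb, *Fez1*, an axon growth gene at 523 kb, rose by a log2 of 2.03 and 2.40, and *Ei24* at 605 kb by 0.92 and 1.05.

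**Figure D5:**
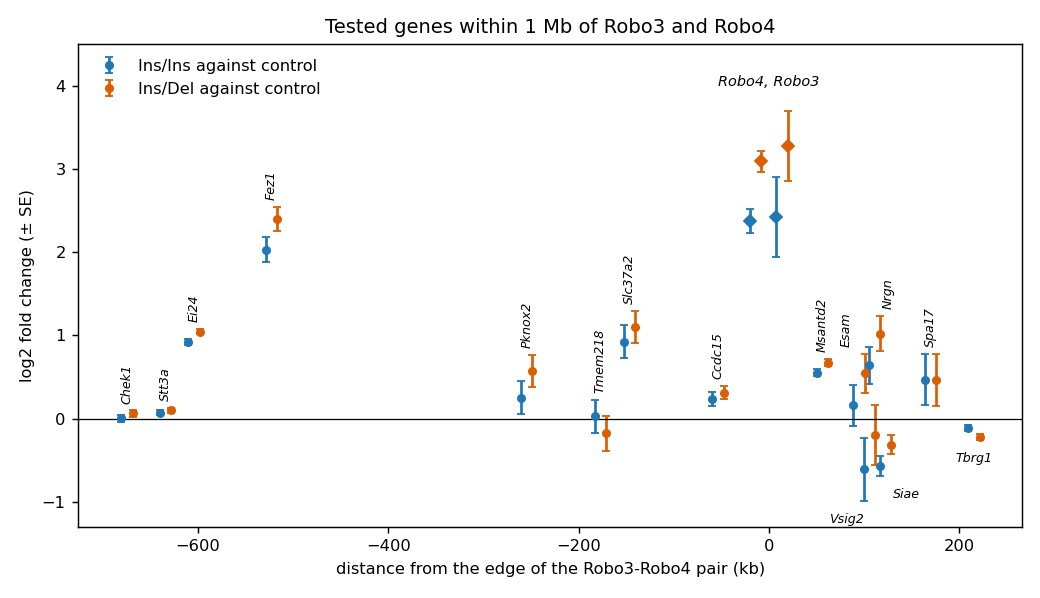
Log2 fold change against control with its SE for the 15 tested genes within 1 Mb of *Robo3* and *Robo4* (diamonds, drawn at 0) by distance in kb from the edge of the pair, with the points of the 2 lines set slightly apart. The pair stands at 2.38 to 3.27, and *Fez1* at 2.03 and 2.40 is the other high gene.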

How the data were processed

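Raw read counts per gene symbol were deposited for each of the 9 libraries. Per the labels and the study's methods, the authors made Kapa mRNA HyperPrep libraries from total RNA, sequenced them as paired ends, aligned reads to mm10 with STAR 2.7.3 and counted them with HTSeq. Their DESeq2 1.22.2 results were not used. The HTSeq version, annotation and strand setting are not given in the sources used here. An unstranded count cannot tell a gene from an antisense partner.

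Counts were tested with edgeR 4.0.16 (R 4.3.3): TMM factors, filterByExpr (minimum count 10), a quasi-likelihood fit over all 9 libraries and 3 lines, and Benjamini-Hochberg adjustment over 14125 genes, called at 0.01. The scripts were tested on simulated data. Totals were 15838064 to 21366868 reads, and no 2 replicates agreed within sampling noise. Gene lengths and positions came from GENCODE M21, with 24366 symbols matched, and sequences from RefSeq on GRCm38.p6. Shares were compared by an exact permutation test over libraries, and reads of low genes by exact intervals for counts. The members and lists were chosen with earlier results of these data known. All members were named, with list genes past a log2 fold change of 1 in both lines, or called in opposite directions, and neighbours called in both lines. DESeq2 1.42.0, other scalings, filters, thresholds and lengths, a replicate block and leaving out each library were the alternatives, of which the transcript length was chosen after seeing the data.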

Additional observations from a re-analysis of the deposited data

Results flagged for a closer look

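*Robo4* differed between the mutant lines, with a log2 difference of 0.71 (Rbbp4Ins/Del minus Rbbp4Ins/Ins), and all 3 Rbbp4Ins/Del libraries lay above all 3 Rbbp4Ins/Ins libraries. *Ntn1* differed by 0.31 in the same direction, again without overlap. Both were picked out by the test of the difference itself. The adjusted p of *Robo4* stayed between 2e-11 and 1.7e-05 in every alternative except the test of a change above 2-fold, where it was 1, and that of *Ntn1* did not hold without some libraries. Groups of 3 libraries were not searched for outliers.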

How the results depend on the processing

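Against control, 347 of 354 alternative values of the members kept their direction and their side of the threshold. A further 6 were calls lost in the test of a change above 2-fold, which *Robo1* and *Neo1* missed in both lines, *Dcc* in Rbbp4Ins/Ins and *Ntn1* in Rbbp4Ins/Del, by the construction of that test. It left 2 members higher and 4 lower in Rbbp4Ins/Ins, and 3 higher and 3 lower in Rbbp4Ins/Del. Over all genes it called 530 higher and 706 lower in the former line and 739 and 824 in the latter. Of the pathway genes it called 2 higher and 3 lower in each line. It called 0 neighbours of *Robo3* and *Robo4*, and between the mutant lines 0 members, 0 pathway genes and 0 genes of all, where the edgeR test had called 872 and 655.

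Between the mutant lines, the members called higher numbered 1 with DESeq2, 4 at an adjusted p of at most 0.05 and 1 to 2 when leaving out each library. At 0.05, 1426 genes were higher and 1256 lower. Leaving out each library gave 576 to 943 genes higher and 406 to 703 lower, with the lowest counts without Rbbp4Ins/Del 2 (576 higher, 412 lower), Rbbp4Ins/Ins 1 (406 lower) and Rbbp4Ins/Del 3 (422 lower). For these the cause was not tested beyond the smaller number of libraries.

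Uncalled differences near 0 turned sign when a library was left out. *Slit1* in Rbbp4Ins/Ins ran from −0.17 to 0.25, and between the mutant lines *Slit2* ran from −0.15 to 0.12, *Slit3* from −0.041 to 0.14 and *Robo1* from −0.026 to 0.057. Of the 15 neighbours of *Robo3* and *Robo4* tested within 1 Mb, 5 were higher and 2 lower in Rbbp4Ins/Ins. In Rbbp4Ins/Del 8 were higher and 1 lower. Over all genes tested, 29.0% were higher and 29.4% lower in Rbbp4Ins/Ins, and 30.6% and 31.9% in Rbbp4Ins/Del. Within 500 kb, the 2 lower in Rbbp4Ins/Ins became 1 with DESeq2 and 1 with only the groups compared. They became 1 to 2 without each library (1 without controls 1 or 2, Rbbp4Ins/Ins 1 or 3 or Rbbp4Ins/Del 2). The 1 lower in Rbbp4Ins/Del within 500 kb became 2 at 0.05.

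Replicate numbers did not pair the libraries (correlations of −0.028 to 0.056 between same-numbered libraries). With the replicate block, 5 members were higher and 4 lower in each mutant line, and 2 higher between the lines, with a log2 difference of 0.71 for *Robo4*. A mean count above 20 as the filter gave no value for *Slit1*, *Robo2* and *Robo3*, nor did a model of only the mutant lines for *Robo2*. Depth limited *Slit1*, *Robo2* and *Robo3*, which had under 50 reads in every library. Length scaling set the size of the receptor shares and of the rise in the summed Robo level.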
